A study of Rattus norvegicus with 16 samples.

Results

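The hippocampal expression of 8 immune genes was described in male Fischer-344 rats, an inbred strain, that differed in age and in exercise training. The genes were chosen by name from the count table, with earlier results of these data known. They were Aif1, the MHC class II genes Cd74, RT1-Da and RT1-Ba, the complement gene C3 and the 3 genes of the C1q chains. Counts of these genes set beside the share of all genes are thus a description and not a test. All 8 were present among the 32754 genes of the table, and all 8 were among the 15035 that passed the filter on low counts. Rats of 6 or 20 months, wild type by their labels, were either trained or kept sedentary for 10 weeks, giving 4 groups of 4 rats: sedentary and trained young rats, and sedentary and trained old rats. Bulk hippocampal RNA was selected for poly(A), and each rat gave 1 library. The count table lists genes by Ensembl ID without symbols, so the names of these genes are those of the rule that chose them: ENSRNOG00000000853 (Aif1), ENSRNOG00000018735 (Cd74), ENSRNOG00000032844 (RT1-Da), ENSRNOG00000000451 (RT1-Ba) and ENSRNOG00000046834 (C3). The C1q genes ENSRNOG00000012807, ENSRNOG00000012804 and ENSRNOG00000012749 could not be assigned to single chains and are written C1q-12807, C1q-12804 and C1q-12749.

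Microglia are the resident macrophages of the brain. Aif1 encodes the calcium- and actin-binding protein Iba1, by which microglia are commonly stained. MHC class II molecules present peptides to CD4 T cells and are built of an alpha and a beta chain. RT1-Da and RT1-Ba encode alpha chains of the rat counterparts of human HLA-DR and HLA-DQ, and Cd74 encodes the invariant chain, which chaperones class II molecules until they are loaded with peptide. In brain tissue, class II is made mainly by microglia and by macrophages at the brain's borders. C1q starts the classical complement pathway and is made in brain chiefly by microglia from chains A, B and C. C3 is the complement component on which the activation pathways converge, and reactive astrocytes as well as microglia can make it.

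Library totals ran from 8630396 to 14576687 counts. The first principal component, with 46.9% of the variance of log2 CPM (CPM, reads relative to library size after TMM scaling), separated the 8 trained from the 8 sedentary libraries, and old sedentary replicate 3 lay apart from the other old sedentary libraries on it, at -12.7 against -55.9 to -49.7. A set of 11 genes was chosen for being near 0 in the trained libraries, with at most 3 counts each, and above a minimum mean level in the sedentary ones. Their summed level was 8.99 to 116 CPM in the sedentary libraries. The split of this sum by training is thus set by the choice of genes. Whether the tissue taken, the sequencing lane or the time of collection differed between trained and sedentary rats was not tested. The labelled tissue was not checked against marker genes, because symbols could not be paired with IDs.

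The class II genes share a promoter architecture, known from other work, in which an X box bound by the RFX complex lies before a Y box bound by NF-Y, and the coactivator CIITA acts on the assembled complex. The promoter windows below, of 300 bases each (250 before and 50 after the start site), are shown because these 3 genes were the members that changed most. They come from RefSeq on build GRCr8, not from the build of the counts. RT1-Da lies at chr20:4515165-4515464, RT1-Ba at chr20:4576807-4577106 and Cd74 at chr18:56526956-56527255, all on the plus strand. Capitals mark GCAAC, a core of the X box, and ATTGG, the Y box core, or its reverse complement CCAAT.
RT1-Da: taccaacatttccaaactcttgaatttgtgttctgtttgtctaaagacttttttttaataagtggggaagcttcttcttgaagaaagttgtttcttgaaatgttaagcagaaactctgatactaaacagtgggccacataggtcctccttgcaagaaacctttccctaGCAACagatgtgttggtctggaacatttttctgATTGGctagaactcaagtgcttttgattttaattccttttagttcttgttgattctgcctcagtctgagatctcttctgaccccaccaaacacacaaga
RT1-Ba: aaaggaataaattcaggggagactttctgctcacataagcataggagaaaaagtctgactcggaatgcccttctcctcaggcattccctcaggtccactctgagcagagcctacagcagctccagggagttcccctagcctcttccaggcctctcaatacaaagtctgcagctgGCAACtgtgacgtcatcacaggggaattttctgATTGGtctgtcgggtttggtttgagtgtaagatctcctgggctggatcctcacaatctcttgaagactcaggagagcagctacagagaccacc
Cd74: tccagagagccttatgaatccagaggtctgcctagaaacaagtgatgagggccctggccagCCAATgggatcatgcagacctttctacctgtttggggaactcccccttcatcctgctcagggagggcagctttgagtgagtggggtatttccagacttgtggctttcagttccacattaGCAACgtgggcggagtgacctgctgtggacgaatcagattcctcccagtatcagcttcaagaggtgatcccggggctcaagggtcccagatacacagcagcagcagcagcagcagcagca
In RT1-Da the first base of GCAAC stood at position -82 from the start site and that of ATTGG at -49. In RT1-Ba they stood at -76 and -43, so 28 bases separated the motifs in both genes. Cd74 had GCAAC at -70 and CCAAT at -189, and thus lacked the exact motifs at this spacing in the window. Motifs with a mismatch, and other spacings, were not searched, so a Y box of another sequence behind GCAAC would have been missed. These positions count from the start site of each window. The RefSeq gene records of Cd74 and RT1-Da begin before that site, at 56527071 and 4515393, so the positions depend on the start site used. Searched on both strands of 33469 RefSeq promoter windows, GCAAC alone was in 35.1% and ATTGG alone in 37.5%, while GCAAC, 28 bases and ATTGG in a row were in 0.0508%, or 17 windows. Of those 17, 4 belonged to the class II genes RT1-Da, RT1-Ba, RT1-DOa and RT1-Ha. The other 5 of the 9 class II windows in the table, RT1-Bb, RT1-DMa, RT1-DOb, RT1-Db1 and RT1-Db2, did not hold the spaced pair. The spacing was taken from the RT1-Da and RT1-Ba sequences themselves. The windows of C3, C1qa and C1qb, the others matched of the 8 names, did not hold the spaced pair. On the same build RT1-Da and RT1-Ba lie within 66.3 kb of chromosome 20, and C1qa, C1qb and C1qc within 17.7 kb of chromosome 5.

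The question of aging was addressed first. The 3 MHC class II genes were the members that rose most with age, about 4 to 5 times in sedentary rats and about 3 to 4 times in trained rats. C3 rose about 2 times in both. The C1q genes showed smaller differences, called for age in sedentary rats in 2 of 3, and Aif1 did not pass the test. In sedentary rats 6 of the 8 genes were called higher in old rats (edgeR quasi-likelihood test, adjusted p below 0.05), against 1.05% of all genes tested. These 6 had no overlap between old and young libraries, as had 4.3% of all genes in the higher direction. In trained rats 4 of 8 were called higher, against 3.33% of all genes. These 4 had no overlap, as had 8.47% of all genes. The median log2 fold change of the 8 genes was 0.93 in sedentary and 0.65 in trained rats, and the median of all genes was 0.01 in both.

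Cd74 stood at 14.0, 20.3, 14.4 and 21.9 CPM in the young sedentary libraries and at 12.4, 19.8, 11.6 and 12.3 CPM in the young trained ones. In old sedentary rats it stood at 90.7, 81.9, 64.8 and 98.0 CPM, and in old trained rats at 46.3, 44.8, 43.7 and 39.8 CPM. Each old library was above each young library, and each old sedentary library was above each old trained one. The group means were 17.6 ± 4.02, 14.0 ± 3.86, 83.8 ± 14.3 and 43.6 ± 2.75 CPM (SD, n = 4), in the same order. In sedentary rats old exceeded young by 2.24 on the log2 scale (SE 0.18, 95% interval 1.86 to 2.62), a 4.73-fold difference with edgeR adjusted p = 7.19e-06. In trained rats the difference was 1.64 (SE 0.18, 3.11-fold, edgeR adjusted p = 0.000284). Ranked by fold change among 15035 genes, Cd74 was 5th from the top for age in sedentary rats and 38th in trained rats.

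RT1-Da was counted at lower depth, with 21 to 60 counts per young library and 74 to 217 per old library. Its levels were 3.90, 3.21, 3.25 and 3.96 CPM in young sedentary and 2.98, 4.99, 1.88 and 2.02 CPM in young trained rats. They were 16.7, 16.6, 13 and 19.0 CPM in old sedentary and 8.85, 9.54, 8.70 and 7.86 CPM in old trained rats. The order was that of Cd74, with no overlap between old and young or between old sedentary and old trained libraries. The log2 fold change with age was 2.19 (SE 0.22, 4.57-fold, edgeR adjusted p = 5.54e-05) in sedentary and 1.55 (SE 0.23, 2.93-fold, edgeR adjusted p = 0.00113) in trained rats.

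RT1-Ba, with 12 to 42 counts per young library and 43 to 133 per old library, had the largest fold change of the 8 genes in both age comparisons. Its levels were 1.60, 2.87, 1.72 and 2.07 CPM in young sedentary, 1.84, 2.33, 1.52 and 0.933 CPM in young trained, 11.2, 11.2, 7.69 and 11.5 CPM in old sedentary and 5.14, 6.30, 7.48 and 5.08 CPM in old trained rats. Old sedentary replicate 3 was the lowest of its group and lay just above the highest old trained library. The log2 fold change with age was 2.30 (SE 0.23, 4.92-fold, edgeR adjusted p = 5.89e-05) in sedentary and 1.87 (SE 0.25, 3.65-fold, edgeR adjusted p = 0.000696) in trained rats. In sedentary rats RT1-Ba, Cd74 and RT1-Da held ranks 4, 5 and 6 by fold change among all genes tested. RT1 genes form a family of similar and polymorphic members. How reads of Fischer-344 alleles were assigned among them on the reference genome is not known from the sources used here.

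**Figure D1:**
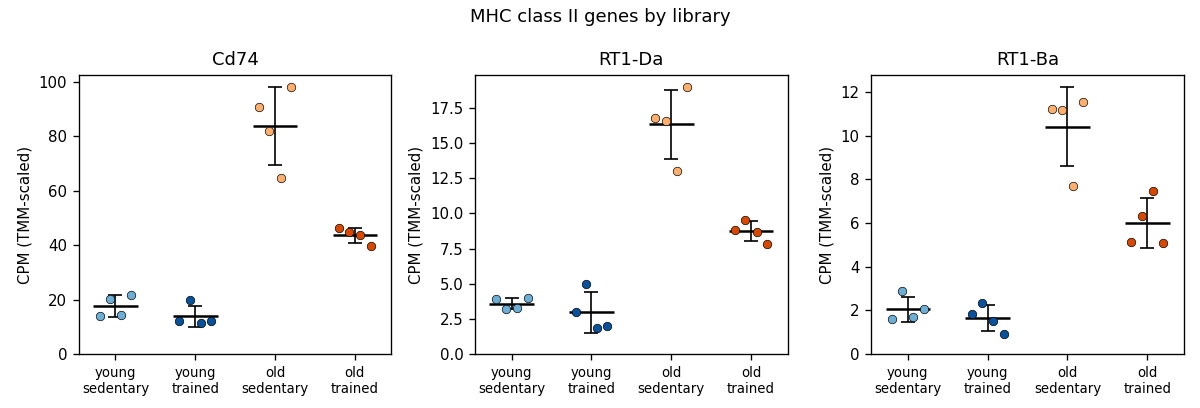
Level of Cd74, RT1-Da and RT1-Ba in CPM (vertical axes, linear, from 0) in each of the 16 libraries. Points are libraries in order of replicate, horizontal lines are group means and bars are SDs (n = 4). Old libraries lie above young ones in all 3 genes, and old trained libraries lie below old sedentary ones, with means of 43.6 against 83.8 CPM for Cd74.

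Whether training was associated with a different level was addressed in each age. In old rats all 3 class II genes fell, to between 0.52 and 0.58 times the sedentary level. C3 fell less, and the C1q genes and Aif1 did not pass the test. Of the 8 genes, 4 were called lower in trained old rats, where 12.6% of all genes were called lower, and 0 were called higher, where 11.5% of all genes were. Training called many genes in these libraries, so the background is high. In young rats 0 of the 8 genes were called, against 17.1% of all genes, and 2 had an unadjusted p below 0.05, against 33.4% of all genes, namely C1q-12804 and C1q-12749. The DESeq2 Wald test and limma voom each called 1 of the 8, C1q-12749 in both. The share of 17.1% is that of edgeR, and the shares of all genes called by these other tests are not given here. Whether 1 of 8 exceeds their background can thus not be read from this count.

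In old rats the log2 fold change with training was -0.94 for Cd74 (SE 0.17, 95% interval -1.30 to -0.59, edgeR adjusted p = 0.00164). It was -0.90 for RT1-Da (SE 0.20, edgeR adjusted p = 0.00435) and -0.78 for RT1-Ba (SE 0.21, edgeR adjusted p = 0.0124). Libraries of the groups did not overlap for these 3 genes, a separation in the lower direction that 11.3% of all genes showed. By fold change they ranked 834th, 877th and 1019th from the bottom of 15035 genes, far less extreme than for age. In young rats the values were -0.34 for Cd74 (SE 0.19, 95% interval -0.73 to 0.06), -0.26 for RT1-Da (SE 0.24, -0.78 to 0.25) and -0.35 for RT1-Ba (SE 0.28, -0.94 to 0.23), with edgeR adjusted p-values of 0.213, 0.471 and 0.39. Young trained replicate 2 was the highest young trained library for all 3 genes. Without it, Cd74 was at -0.53 and RT1-Da at -0.62 in young rats, with edgeR adjusted p-values of 0.0442 and 0.0482, while RT1-Ba was at -0.55 (edgeR adjusted p = 0.216). Other libraries moved the values the other way. Cd74 was at -0.22 without young sedentary replicate 4 and at -0.23 without young trained replicate 3 (edgeR adjusted p = 0.479 and 0.426). RT1-Da was at -0.075 without young trained replicate 3 and at -0.093 without replicate 4 (edgeR adjusted p = 0.845 and 0.839). RT1-Ba was at -0.11 without young sedentary replicate 2 and at -0.13 without young trained replicate 4 (edgeR adjusted p = 0.828 and 0.786).

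**Figure D2:**
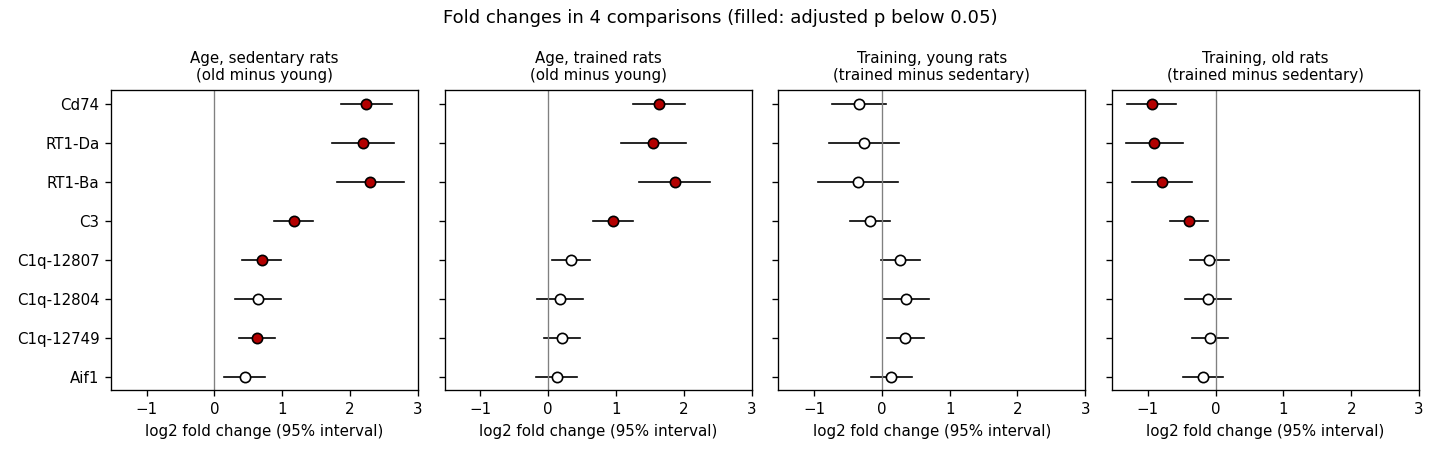
Log2 fold changes (horizontal axis) of the 8 genes for age in sedentary and in trained rats and for training in young and in old rats, from 1 edgeR fit over 16 libraries. Lines are 95% intervals and filled points have an adjusted p below 0.05. The class II genes lie farthest to the right for age, from 1.55 to 2.30, and to the left for training in old rats, from -0.94 to -0.78.

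Whether training differed between the ages was asked with the interaction, which called 0 of the 8 genes and 0% of all genes (edgeR, 13.5% at an unadjusted p below 0.05). For Cd74 the training effect in old rats minus that in young rats was -0.61 (SE 0.25, 95% interval -1.14 to -0.08, unadjusted p = 0.0276, edgeR adjusted p = 0.327). It was -0.64 for RT1-Da (SE 0.31, edgeR adjusted p = 0.385) and -0.43 for RT1-Ba (SE 0.35, edgeR adjusted p = 0.589). A larger fall of class II with training in old than in young rats was thus not established after adjustment. The same interaction asks whether the rise with age was smaller in trained rats. On the log2 scale of that test the rise of Cd74 was 2.24 in sedentary and 1.64 in trained rats. In CPM, a scale that was not tested, the old and young means were 66.2 apart in sedentary and 29.6 apart in trained rats.

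The age and training comparisons share the old sedentary libraries, so a high level in that group enters the rise with age and the fall with training alike. The rise of the class II genes was also present between the young and old trained rats, a comparison without sedentary libraries. The fall with training in old rats was called in 24 of 26 alternative analyses for each of the 3 class II genes. Those that left out a young library, which this comparison does not use, could hardly move it. Cd74 was between -0.942 and -0.936 in them. The fall was smaller in the 2 settings that follow. With 2 surrogate variables, which are estimated from the counts, it was -0.47 for Cd74, -0.63 for RT1-Da and -0.20 for RT1-Ba, with edgeR adjusted p-values of 0.193, 0.283 and 0.741. The same variables gave -0.48, -0.40 and -0.25 for training in young rats (edgeR adjusted p = 0.0445, 0.343 and 0.511). The first of these variables was -0.568, -0.322 and -0.374 in old sedentary replicates 1, 2 and 4 and 0.14 in replicate 3, against 0.143 to 0.30 in the old trained libraries. In young rats it was 0.335, -0.211, 0.233 and 0.00124 in the sedentary and 0.0269, -0.128, 0.0867 and -0.0269 in the trained libraries. Leaving out old sedentary replicates 1, 2 and 4, so that replicate 3 alone stood for the group, gave -0.57, -0.57 and -0.34 for training in old rats. Replicate 3 was the lowest old sedentary library for each of the 3 genes, so this choice by itself makes the fall smaller. In the same setting the rise with age in sedentary rats was smaller too. Its log2 fold change was between 1.86 and 1.87 for the 3 genes, against 2.19 to 2.30 with all libraries.

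Cd74 was set beside the summed level of the 11 genes near 0 in trained libraries. Among young sedentary rats the sums were 14.0, 43.1, 8.99 and 47.4 CPM in replicates 1 to 4, and Cd74 was higher in replicates 2 and 4, at 20.3 and 21.9 CPM, than in replicates 1 and 3, at 14.0 and 14.4 CPM. Among old sedentary rats the sums were 56.2, 73.0, 26.1 and 116 CPM, with Cd74 at 90.7, 81.9, 64.8 and 98.0 CPM. Replicate 3 was the lowest and replicate 4 the highest of that group in both, but replicates 1 and 2 stood in the opposite order, as did young sedentary replicates 1 and 3. In the trained libraries the sums were at most 1.08 CPM at each age, and Cd74 was at 39.8 CPM or more in old and 19.8 CPM or less in young rats, a smaller difference in fold and in CPM than in sedentary rats. The part of these genes in the age and training differences was not tested.

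**Figure D3:**
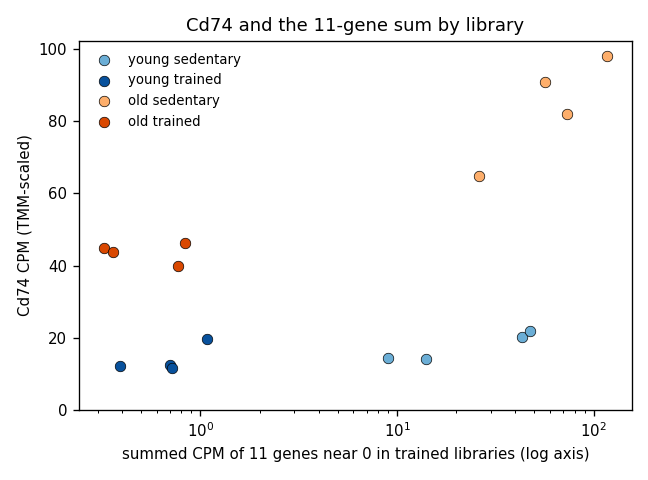
Cd74 level in CPM (vertical axis, linear) against the summed CPM of the 11 genes near 0 in trained libraries (horizontal axis, log scale), with 1 point for each library and a colour for each group. Sedentary libraries spread from 8.99 to 116 CPM on the horizontal axis and trained ones lie at 1.08 CPM or below, a split set by how the genes were chosen. In each of these ranges the old libraries lie above the young ones.

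C3 was the other member that rose with age in both training states. Its levels were 59.2, 60.0, 51.4 and 59.0 CPM in young sedentary and 47.3, 45.6, 55.6 and 54.7 CPM in young trained rats. In old sedentary rats they were 107, 146, 99.0 and 165 CPM, and in old trained rats 107, 101, 84.9 and 102 CPM. Old and young libraries did not overlap, whereas old sedentary and old trained libraries did, because old sedentary replicate 3 lay in the range of the old trained group. Old sedentary replicate 1, at 107.2 CPM, lay just above the highest old trained library, at 106.7 CPM. The log2 fold change with age was 1.17 (SE 0.14, 2.25-fold, edgeR adjusted p = 0.000303) in sedentary and 0.96 (SE 0.14, 1.94-fold, edgeR adjusted p = 0.00113) in trained rats. Training was associated with -0.39 in old rats (SE 0.13, edgeR adjusted p = 0.0435), a call that held in 8 of 26 alternative analyses, and with -0.18 in young rats (SE 0.14, edgeR adjusted p = 0.384). Without old sedentary replicate 4 the value in old rats was -0.25 (edgeR adjusted p = 0.166), and without replicates 1, 2 and 4 it was 0.00. The interaction was -0.21 (SE 0.19, edgeR adjusted p = 0.627).

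The C1q genes moved together. C1q-12807 stood at 62.9, 85.5, 62.0 and 65.0 CPM in young sedentary, 86.2, 83.5, 70.5 and 92.5 CPM in young trained, 133, 112, 86.5 and 116 CPM in old sedentary and 115, 118, 92.0 and 95.4 CPM in old trained rats. Summed over the 3 genes, C1q was at 147 ± 26.2 CPM in young sedentary, 183 ± 21.5 in young trained, 233 ± 37.9 in old sedentary and 219 ± 24.8 in old trained rats (SD, n = 4). The lowest old sedentary library, 186 CPM, was just above the highest young sedentary one, 183 CPM, and the lowest old trained library, 197 CPM, was just above the highest young trained one, 196 CPM. All old trained libraries lay within the range of the old sedentary ones. The shares of the summed C1q counts were steady: C1q-12807 took 43.5% to 49.6% in each library, C1q-12804 24.5% to 28.4% and C1q-12749 24.8% to 28.1%.

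In sedentary rats the log2 fold change of C1q with age was 0.70 for C1q-12807 (SE 0.14, edgeR adjusted p = 0.0195), 0.63 for C1q-12749 (SE 0.13, edgeR adjusted p = 0.0225) and 0.65 for C1q-12804 (SE 0.16, edgeR adjusted p = 0.0555). The first 2 calls were lost when young sedentary replicate 1 or 3, or old sedentary replicate 1 or 4, was left out, with edgeR adjusted p-values between 0.068 and 0.101. In a fit of the sedentary libraries alone neither passed (edgeR adjusted p = 0.133 for both). C1q-12804 passed in 6 of 26 alternative analyses, among them without old sedentary replicate 3, at 0.74 (edgeR adjusted p = 0.006). In trained rats the values were 0.34, 0.20 and 0.18 for C1q-12807, C1q-12749 and C1q-12804, and none passed (edgeR adjusted p = 0.15, 0.364 and 0.541). With 2 surrogate variables all 3 passed in trained rats, at 0.60, 0.42 and 0.47 (edgeR adjusted p = 0.00407, 0.0244 and 0.0283), whereas in sedentary rats none did, at 0.42, 0.38 and 0.30 (edgeR adjusted p = 0.265, 0.372 and 0.6). Averaged over training, all 3 passed, at 0.52, 0.42 and 0.41 (edgeR adjusted p = 0.00353, 0.00905 and 0.0296), and 7 of the 8 genes were called higher, against 5.51% of all genes. The 8 old and 8 young libraries did not overlap in 4 of them, the class II genes and C3, against 0.346% of all genes. Training averaged over age called the same 4 genes lower, where 18.0% of all genes were.

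For training, the C1q genes passed in neither age. In young rats the 3 genes were higher by 0.27 to 0.36 on the log2 scale, with intervals of -0.02 to 0.56, 0.02 to 0.70 and 0.08 to 0.62 for C1q-12807, C1q-12804 and C1q-12749, and none passed the adjusted threshold (edgeR adjusted p = 0.172, 0.129 and 0.0675). In old rats the values were -0.09, -0.11 and -0.09, with intervals of -0.37 to 0.19, -0.45 to 0.22 and -0.35 to 0.18. All 3 values were negative, as were those of the class II genes. The C1q intervals overlapped the upper end of that of RT1-Ba, -1.23 to -0.34. They did not overlap those of Cd74, -1.30 to -0.59, and RT1-Da, -1.32 to -0.49. The difference between genes was not tested. The interaction was -0.36, -0.47 and -0.43 in the same order (edgeR adjusted p = 0.418, 0.377 and 0.323).

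**Figure D4:**
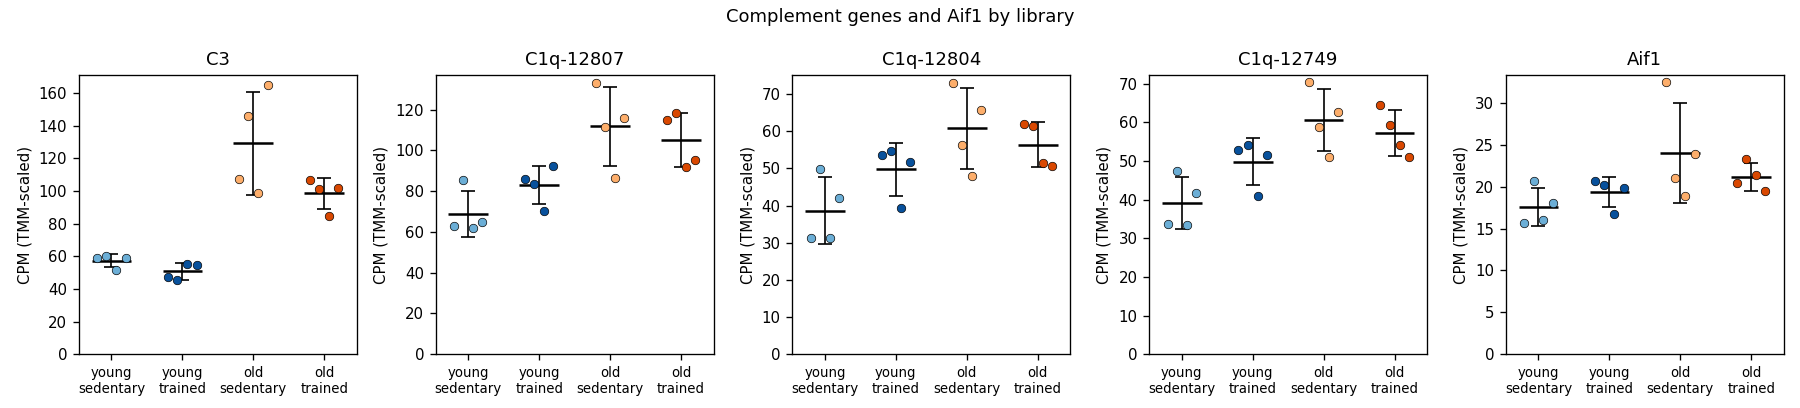
Level of C3, the 3 C1q genes and Aif1 in CPM (vertical axes, linear, from 0) in each library. Points are libraries in order of replicate, horizontal lines are group means and bars are SDs (n = 4). C3 is separated by age, from a young maximum of 60.0 CPM to an old minimum of 84.9 CPM, whereas for Aif1 the groups overlap.

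Aif1 passed the test in none of the comparisons. Its levels were 15.7, 20.6, 16.1 and 18.0 CPM in young sedentary, 20.7, 20.2, 16.8 and 19.9 CPM in young trained, 32.5, 21.0, 18.9 and 23.9 CPM in old sedentary and 20.4, 23.4, 21.4 and 19.5 CPM in old trained rats. All groups overlapped, and old sedentary replicate 1 was the highest library. The log2 fold change with age was 0.45 in sedentary rats (SE 0.14, 95% interval 0.14 to 0.75, edgeR adjusted p = 0.0985) and 0.13 in trained rats (SE 0.14, -0.17 to 0.43, edgeR adjusted p = 0.634). Without old sedentary replicate 3 the first of these passed, at 0.54 (edgeR adjusted p = 0.0155), and without old sedentary replicate 1 it was 0.27 (edgeR adjusted p = 0.282). It was 0.11 with 2 surrogate variables and 0.092 without old sedentary replicates 1, 2 and 4 (edgeR adjusted p = 0.911 and 1). With training, Aif1 differed by 0.14 in young rats (SE 0.14, edgeR adjusted p = 0.53) and by -0.18 in old rats (SE 0.14, edgeR adjusted p = 0.394). In bulk tissue, more cells of a type and more RNA per cell cannot be told apart.

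Ratios within a library remove its scaling. The log2 ratio of the 3 class II genes, summed, to Aif1 was 0.39 ± 0.16 in young sedentary, -0.10 ± 0.36 in young trained, 2.22 ± 0.26 in old sedentary and 1.46 ± 0.08 in old trained rats (SD, n = 4). Old libraries, from 1.38 to 2.43, did not overlap young ones, from -0.39 to 0.63. The log2 ratio of summed C1q to Aif1 ran from 2.98 to 3.56 over all 16 libraries. Its group means were 3.05, 3.23, 3.29 and 3.37, with old and young libraries overlapping. RT1-Da to Cd74 had means between -2.36 and -2.28 in the 4 groups, with the young libraries, where RT1-Da had few counts, the most scattered. RT1-Ba to Cd74 had means between -3.12 and -2.88. These ratios describe change between groups and not the relative amount of different transcripts, since gene length was not taken into account.

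**Figure D5:**
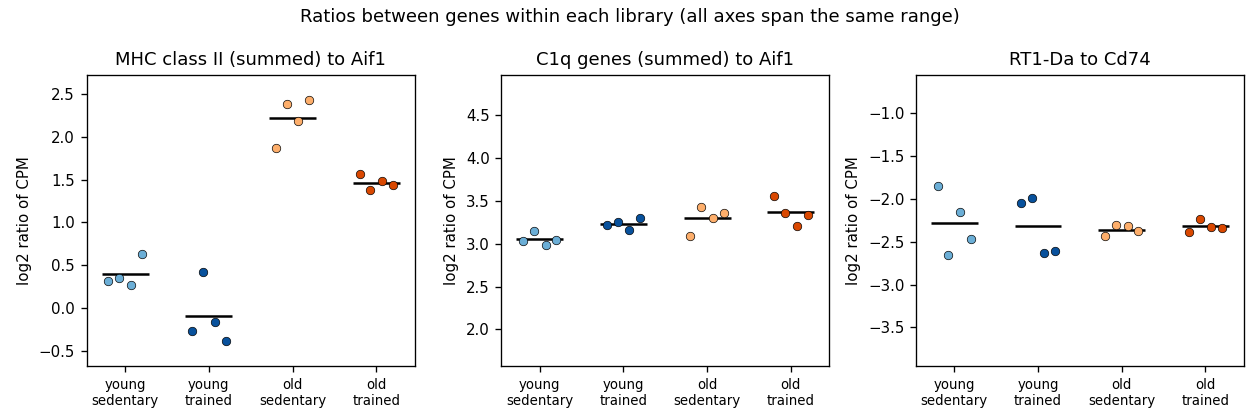
Log2 ratio of CPM (vertical axes, equal span) between summed class II genes and Aif1, summed C1q genes and Aif1, and RT1-Da and Cd74, for each library, with lines at group means. The first panel separates old from young libraries, at 1.38 to 2.43 against -0.39 to 0.63, and the other panels do not separate old from young libraries.

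Co-variation among rats of a group was described from log2 CPM after subtracting group means, over 16 libraries that share depth and the differences between libraries described above. C1q-12804 and C1q-12749 had Pearson r = 0.985 (Spearman rho = 0.962), and C1q-12807 had r = 0.89 and 0.882 with them. Aif1 had r = 0.821 to 0.851 with the C1q genes. The class II genes had r = 0.606 to 0.714 with each other. Cd74 had r = 0.764 with C1q-12804 and 0.752 with C1q-12749, above each of the class II pairs, and 0.516 with C1q-12807 and 0.574 with Aif1. C3 had r = -0.085 with Aif1, 0.187 with Cd74 and 0.129 to 0.301 with the C1q genes. Before group means were subtracted, C3 and Cd74 had r = 0.934, and both were high in the old groups.

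Among 13379 other genes, each averaging 1 or more on the log2 CPM scale, the gene most like summed C1q within groups was ENSRNOG00000013992 (r = 0.922), at 31.4 ± 2.39 CPM in young sedentary, 34.2 ± 2.51 in young trained, 30.0 ± 1.71 in old sedentary and 31.0 ± 1.40 in old trained rats (SD, n = 4). Before group means were subtracted its r was 0.195. The gene ranked 2nd within groups was nearly tied (r = 0.92) and had r = 0.905 before group means were subtracted. The gene most like Cd74 was ENSRNOG00000014644 (r = 0.909), at 62.5 ± 40.6 CPM in young sedentary, 13.8 ± 9.96 in young trained, 115 ± 49.8 in old sedentary and 7.91 ± 3.19 in old trained rats (SD, n = 4). Before group means were subtracted its r was 0.428. It fell with training in both ages, with log2 differences of -2.19 in young (SE 0.54, edgeR adjusted p = 0.0159) and -3.90 in old rats (SE 0.59, edgeR adjusted p = 0.00098). With age in sedentary rats it did not pass (log2 fold change 0.87, SE 0.50, edgeR adjusted p = 0.354). The genes ranked 2nd and 3rd were close (r = 0.899 and 0.892) and also fell with training in both ages. Their log2 differences were -2.79 and -3.33 in young rats (edgeR adjusted p = 0.0182 and 0.0023). In old rats they were -5.80 and -4.14 (edgeR adjusted p = 0.000862 and 0.000674). The reference tables used here do not pair these IDs with symbols.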

How the data were processed

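Raw counts per Ensembl gene ID were analysed as the authors deposited them. Per the submitters' processing notes the build was Rnor_6.0, and the tools included HTSeq, TopHat2 2.1.1 and DESeq2, as well as Trimmomatic, SAMtools and FastQC. Strand setting and annotation release are not given in the sources used here. Genes were filtered with filterByExpr in edgeR 4.0.16 (R 4.3.3), scaled by TMM and fitted with glmQLFit (robust), 1 mean per group over 16 libraries with 12 residual degrees of freedom. The 7 contrasts of group means each had a 2-sided glmQLFTest, with p-values adjusted by Benjamini-Hochberg over all 15035 genes. The standard error is the log2 fold change divided by the square root of F. Log2 CPM used a prior count of 2. p-values measure the spread between rats, which the labels call biological replicates. No pair of libraries in a group agreed within sampling noise. The test was checked on simulated data. Alternatives used DESeq2 1.42.0, limma 3.58.1 and sva 3.50.0. The genes and lists were chosen with earlier results of these data known. All 8 genes are named, with the gene most like summed C1q and the one most like Cd74. The 5 lists of other genes and the cell type markers were not analysed, because the RefSeq table (GRCr8) matched 0 of the IDs.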

Additional observations from a re-analysis of the deposited data

Results flagged for a closer look

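Of 32 sets of 4 libraries, 8 genes in 4 groups, 4 held a library far from the rest of its group. Chance marks about 1 in 20 sets, and these sets reuse the same libraries. Cd74 in young trained replicate 2 stood at 19.8 CPM, against 11.6 to 12.4 CPM in the others. RT1-Ba in old sedentary replicate 3 stood at 7.69 CPM, against 11.2 to 11.5 CPM. C3 in young sedentary replicate 3 stood at 51.4 CPM, against 59.0 to 60.0 CPM, and C1q-12807 in young sedentary replicate 2 at 85.5 CPM, against 62.0 to 65.0 CPM.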

How the results depend on the processing

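Leaving out libraries, other scalings, filters, tools and covariates gave 1432 values to compare, of which 1308 kept direction and side of the threshold, 69 lost a call, 28 gained one and 27 changed sign. The class II genes and C3 were called for age in trained rats in all 26 alternatives, and Cd74 for age in sedentary rats in all 26. Those of the 26 that left out a library outside the comparison could hardly move a value. Leaving out 1 library at a time gave 4 to 8 genes called for age in sedentary rats. The share of all genes called was 13.2% where 8 were called, without old sedentary replicate 3. It was 0.25% to 0.383% where 4 were called. There were 4 for age in trained rats, 0 to 2 for training in young rats and 3 to 4 for training in old rats. Training averaged over age gave 2 to 4, with the 2 without young sedentary replicate 2. Shares of all genes are not given beside the other counts of this paragraph. For training in young rats, where 0 were called, the DESeq2 Wald test, limma voom, the replicate block and 2 surrogate variables each called 1, and the first component of the residuals called 2. With 2 surrogate variables the gene was Cd74, and with DESeq2 and limma voom it was C1q-12749. With 2 surrogate variables 7 genes were called for age in trained rats, all but Aif1, and 0 for training in old rats. Without old sedentary replicates 1, 2 and 4 together, 1 was called for age in sedentary rats, 0 for training in old rats, 4 for age averaged over training and 0 for training averaged over age. The residual component was chosen after seeing the data. The fit without 3 libraries assumes that the lone library varies like the other groups.

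With 2 surrogate variables the sign turned for training in old rats in Aif1 (0.27), C1q-12807 (0.28), C1q-12804 (0.37) and C1q-12749 (0.26). It turned for the interaction in Aif1 (0.23), Cd74 (0.0055), RT1-Ba (0.047), C1q-12807 (0.18), C1q-12804 (0.17) and C1q-12749 (0.046), and for training averaged over age in Aif1 (0.16). Without old sedentary replicates 1, 2 and 4 it turned for training in old rats in Aif1 (0.17), C1q-12807 (0.28), C1q-12804 (0.23) and C1q-12749 (0.17), for the interaction in Aif1 (0.046), RT1-Ba (0.018), C3 (0.19) and C1q-12807 (0.024), and for training averaged over age in Aif1 (0.15). With limma voom the latter was 0.011, and leaving out 1 library it ran from -0.072 to 0.067. C1q-12807 for training in old rats ran from -0.19 to 0.0061. The causes were not tested, and none of these genes was called in the result concerned. With the replicate number as a block, 7, 4, 1 and 4 genes were called for age in sedentary and in trained rats and for training in young and in old rats. For age in sedentary rats the block called 3.72% of all genes, against 1.51% in the main fit. Over 24 pairs of libraries with the same number, the correlation of deviations from group means ran from -0.245 to 0.477 and was over 0.1 in 12. Pairs with different numbers were not examined, so whether the numbers pair the rats was not settled. A fit with 1 surrogate variable was not run, because all its weight fell on 1 library. Depth limits RT1-Ba and RT1-Da most, at 12 and 21 counts in their lowest libraries.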
